A study of Anopheles arabiensis with 20 samples.

Results

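The transcripts described here are the 100 nuclear gene IDs that drew the most sequencing counts in unfed adult females of the malaria mosquito *Anopheles arabiensis*. They were chosen by their level alone, as the IDs with the highest mean CPM over all 20 libraries, out of 13830 nuclear IDs in a table of 13867. CPM here is a count after scaling the nuclear counts of its library to a sum of 1000000. Each library was made from polyA RNA of a pool of 10 whole females, 3 to 5 days old and without a blood meal, so cell types were not separated. The libraries form 5 groups of 4. ASN (Asendabo), CHW (Chewaka) and TOL (Tolay) were grown from larvae of Ethiopian field sites and are labelled as resistant to the insecticides deltamethrin and DDT. The susceptible groups are SEK, the Ethiopian laboratory strain Sekoru, and MOZ, a laboratory strain of Mozambican origin. Adults were fed on sugar solution, and the strains were reared much like the populations. The labels name no insecticide treatment of the sequenced females.

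In insects, as in other animals, a small number of genes supplies a large part of the messenger RNA. Genes for ribosomal proteins, translation factors, muscle fibre proteins and mitochondrial energy supply are usually among them, and adult female mosquitoes add products of the gut, the salivary glands and the fat body. A highly expressed gene can change little between animals, when its product is needed in nearly every cell, or much, when 1 tissue makes it in response to food, mating or season. Which of these roles each member has was not analysed here, since the RefSeq table of the assembly AaraD3 matched 0 of the nuclear IDs and 0 of the 100 members, and the count table pairs no ID with a name. The members are therefore given by ID, and no sequence is shown. CPM is not divided by transcript length, so an order of IDs by CPM is an order of counts, in which long transcripts stand higher than short ones at the same number of molecules. Where genes overlap or are near-identical copies, how their common reads were assigned to IDs is not known here, so counts of such IDs are uncertain.

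A library held 12205530 (MOZ replicate 2) to 21516390 (ASN replicate 3) counts, of which 9868619 to 17643001 were nuclear. Every member had at least 1559 counts in every library, so counting error was small beside the spread between libraries. The mitochondrial share of all counts, which the nuclear CPM leaves out, was highest in TOL at 32.8% ± 4.74, then 29.6% ± 2.12 in ASN and 21.0% ± 3.91 in CHW, and lower in the strains, at 17.6% ± 4.91 for SEK and 16.1% ± 2.14 for MOZ (mean ± SD over 4 libraries). The library names give 2 sequencing runs: the first holds ASN, TOL and replicates 1 and 2 of CHW, the second the strains and the rest of CHW, so the run and the contrast of ASN or TOL with a strain cannot be told apart. Every replicate pair differed by more than sampling noise, with a chi-square of at least 26.7 for each degree of freedom.

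The 100 members, 0.723% of the nuclear IDs, held 29.4% of nuclear counts on average. Their share was 28.97%, 29.18%, 27.46% and 26.25% in ASN replicates 1 to 4, 31.35%, 29.41%, 30.87% and 29.07% in those of CHW and 30.78%, 30.21%, 30.11% and 29.37% in those of TOL. The strain libraries had 30.13%, 30.68%, 27.33% and 27.94% (SEK) and 28.7%, 28.82%, 30.99% and 31.01% (MOZ). The mean ± SD over 4 libraries was 30.2% ± 1.11 for CHW, 30.1% ± 0.579 for TOL, 29.9% ± 1.29 for MOZ, 29.0% ± 1.63 for SEK and 28.0% ± 1.38 for ASN. All 4 ASN libraries lay below all 4 TOL libraries, by a narrow margin, and every other pair of groups overlapped. As a share of all counts, mitochondrial ones included, the order of the groups was another one, with MOZ highest at 25.1% ± 1.53, SEK at 23.8% ± 0.344, CHW at 23.8% ± 1.65, TOL at 20.2% ± 1.06 and ASN at 19.7% ± 1.36. The 95% Wilson interval of the nuclear share was at most 0.057 percentage points wide in any library and covers counting error only. No test was made of the share, since it is a sum over members chosen for their level.

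**Figure D1:**
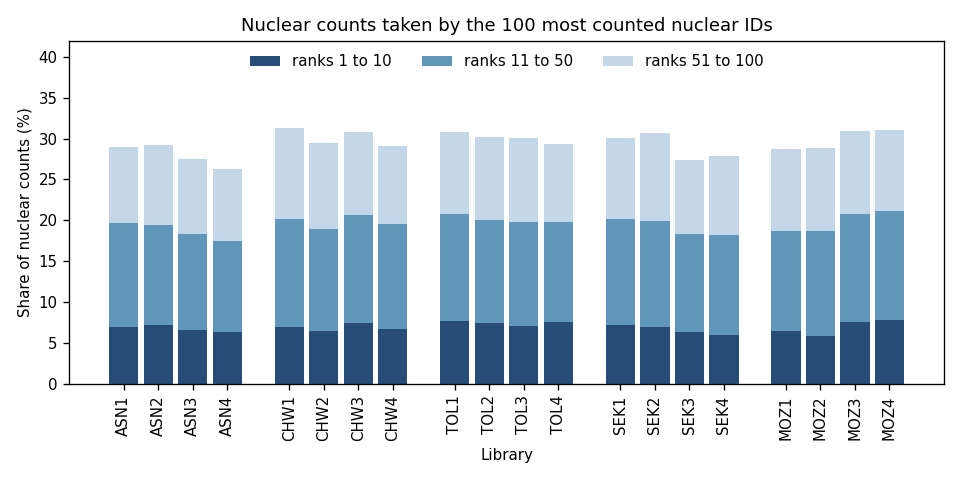
Share of nuclear counts (%) in each of the 20 libraries, split into members ranked 1 to 10, 11 to 50 and 51 to 100 by mean CPM. The bars end between 26.25% in ASN replicate 4 and 31.35% in CHW replicate 1.

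The share was concentrated at the top of the list. The first ID alone took 1.18% of nuclear counts, the first 10 took 6.90% and the first 50 took 19.5%. Doubling the list to 200 IDs brought the share to 42.6%, and 1000 IDs took 70.3%. The first 10 took between 5.79% in MOZ replicate 2 and 7.78% in MOZ replicate 4, so the lowest and the highest library belonged to 1 group. If each library was allowed its own 100 highest IDs, they held 27.0% to 32.58% of its nuclear counts, and between 74 (TOL replicate 1) and 96 (CHW replicate 2) of them were members.

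AARA004516 had the highest mean and was first in 15 of the 20 libraries. It stood at 15332, 13211, 11474 and 7982 CPM in ASN replicates 1 to 4, at 13771, 11578, 14089 and 8931 in CHW and at 17146, 11624, 13267 and 9932 in TOL. In SEK it stood at 13399, 13086, 11120 and 9208 CPM, and in MOZ at 8707, 7228, 13297 and 11173. All groups overlapped, and replicate 4 was the lowest library of ASN, CHW, TOL and SEK but not of MOZ. Populations over strains, its fitted log2 fold change was 0.30 with an SE of 0.177 (edgeR adjusted p 0.183).

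AARA016439 and AARA001634, ranked 2 and 3, were highest in MOZ. AARA016439 was first in MOZ replicates 1 and 4, ASN replicate 4 and CHW replicate 4. It stood at 13168, 12504, 12480 and 18155 CPM in MOZ against 9420, 9127, 7532 and 6605 in SEK. AARA001634 stood at 11477, 11175, 11502 and 16218 CPM in MOZ against 9131, 8122, 7734 and 6490 in SEK. For both IDs every MOZ library lay above every SEK library. MOZ over SEK, the log2 fold change was 0.77 (SE 0.223, edgeR adjusted p 0.00979) for AARA016439 and 0.67 (SE 0.219, edgeR adjusted p 0.0202) for AARA001634, both under the 2-fold limit used for a call. Across the 20 libraries the log2 CPM of these IDs had a Pearson r of 0.968, given as a description over libraries that share their totals.

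The other IDs of the first 10 had mean CPM of 7399 (AARA011366), 6329 (AARA003045), 6051 (AARA009847), 5865 (AARA000196), 5564 (AARA008016), 4832 (AARA002065) and 4507 (AARA003651). AARA000196 was the steadiest of the first 10, with a pooled within-group SD of 0.132 on the log2 scale and group means from 5317 CPM in TOL to 6314 in CHW. AARA002065 had the widest range of group means among them, 1.84 on the log2 scale, with a mean of 9203 CPM in TOL and 2566 in MOZ. AARA003651 stood at 4589, 6954, 6526 and 9731 CPM in TOL, against 3273, 3265, 3636 and 2885 in SEK, with no overlap between the groups.

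At the lower end the list had no gap. The last members, AARA007020 and AARA000430, had mean CPM of 1705 and 1691, and the first IDs left out, AARA002634 and AARA014262, both had 1679. By the median over the 20 libraries in place of the mean, 96 of the 100 IDs were the same. The 4 that dropped out were AARA001672, AARA015772, AARA016538 and AARA016534, at median ranks of 189, 300, 243 and 103. The first 3 of these are in the list through high levels in 1 or 2 groups. Without TOL, AARA015772 was at rank 212. Without CHW and SEK, AARA016538 was at rank 328 and AARA001672 at rank 231. That these 3 IDs differ between groups therefore follows in part from how they were chosen.

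Ranks by group mean were compared next. Of the 100 members, 71 were among the 100 highest IDs in every group, 12 in 4 groups, 13 in 3 and 4 in 2. All but 3 stayed within the 200 highest IDs in every group. The list of CHW held 96 of the members, that of SEK 95, ASN 89, TOL 85 and MOZ 85. In all, 138 IDs were among the 100 highest of at least 1 group, 38 of which were no members. The median ratio of a member's worst to its best group rank was 2.15.

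The 4 members with the largest rank changes moved in 2 patterns. AARA015772 was at rank 7 in TOL and 53 in ASN, far above its ranks of 253 in CHW, 510 in SEK and 511 in MOZ. AARA002065 followed the same order, at rank 2 in TOL, 6 in ASN, 23 in CHW, 30 in SEK and 50 in MOZ. AARA001672 was at rank 8 in SEK and 17 in CHW but at 222 in ASN, 277 in TOL and 202 in MOZ. AARA016538 was at rank 15 in SEK and 37 in CHW, and at 444 in ASN, 220 in TOL and 534 in MOZ. Together AARA015772, AARA016538 and AARA001672 took 0.152% ± 0.0643 of nuclear counts in MOZ and 0.992% ± 0.32 in SEK (mean ± SD, n = 4 each).

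**Figure D2:**
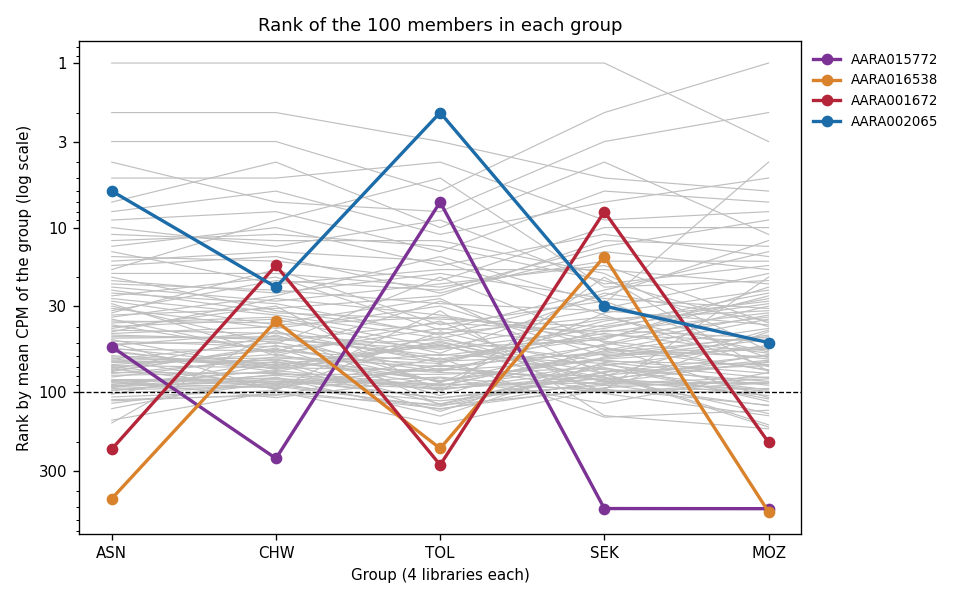
Rank of each member (1 line per ID) by the mean CPM of each group, on a log scale with rank 1 at the top and a dashed line at rank 100. The 4 coloured IDs have the largest rank changes, such as AARA015772 from 7 in TOL to 511 in MOZ.

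Differences between groups were tested with edgeR's quasi-likelihood test over all 11018 genes of the table that passed a filter on low counts, and all 100 members passed it. Calls required at least a 2-fold change together with an adjusted p (Benjamini-Hochberg) below 0.05. Between any of the 5 groups 15 members were called, against 26.2% of all genes tested and 22.3% of the 900 nuclear IDs that follow the members in rank. Of these 15 members, 9 were highest in TOL and 10 lowest in MOZ by nuclear CPM. The other called genes were not counted by group, so this direction is not shown to be particular to the members. AARA015772, AARA016538 and AARA001672 are among the 15 and are members in part through the groups where they are high. Without the fold requirement 55 members passed, against 66.2% of all genes tested. The size of the differences was small for most members, with a median range of 0.54 between the lowest and the highest group mean on the log2 scale. In these whole-body pools fewer cells of a type and less RNA per cell cannot be told apart.

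Between the field populations and the strains 3 members were called, all higher in the populations, against 5.74% of all genes tested (3.91% higher and 1.82% lower). Without the fold requirement 48 members passed, 27 higher and 21 lower, against 42.9% of all genes tested. The median log2 fold change over the members was 0.02, and that over all genes tested -0.01. The members split into 53 above and 47 below 0, and 81 of the 100 lay within 0.5 of 0. They were not steadier than other genes by size of change. The median absolute log2 fold change was 0.26 over the members, 0.24 over all genes tested and 0.23 over the 900 IDs that follow in rank. With library totals of nuclear counts in place of the scaling, which shifted the median of all genes by -0.11, 43 members lay above 0. All 12 field libraries lay above all 8 strain libraries for 0 members and below them for 0, against 0.436% and 0.782% of the nuclear genes tested, or 1.22% either way.

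AARA015772 differed the most of the 3. It stood at 614, 2983, 2129 and 3210 CPM in ASN replicates 1 to 4, at 1606, 306, 557 and 351 in CHW and at 3847, 6277, 7411 and 7822 in TOL. In SEK it stood at 532, 299, 292 and 228 CPM and in MOZ at 358, 158, 364 and 398. TOL lay above every strain library and so did ASN, while 3 of the 4 CHW libraries lay among them or close to them. Without TOL this ID was at rank 212, so its choice as a member rests in part on the values compared here. Populations over strains, its log2 fold change was 2.81 with an SE of 0.363 (edgeR adjusted p 9.59e-06). Within the second run, where CHW replicates 3 and 4 face the strains, it was 0.54 (edgeR adjusted p 0.474), and with the run as a covariate 1.85 (edgeR adjusted p 0.0779).

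AARA002065 was higher in the populations by 1.14 on the log2 scale (SE 0.144, edgeR adjusted p 7.12e-06). It stood at 7634, 10496, 10139 and 8544 CPM in TOL, at 4099, 8137, 5596 and 5105 in ASN and at 4406, 3401, 3713 and 2844 in CHW. The strains had 3170, 3467, 2945 and 2674 CPM in SEK and 2014, 2585, 2862 and 2801 in MOZ. TOL and ASN lay above all strain libraries, and CHW overlapped with them. Within the second run the value was 0.30 (edgeR adjusted p 0.481), and with the run as a covariate 0.93 (edgeR adjusted p 0.0546). AARA002065 was also the member most like AARA015772 across the 20 libraries, with a Pearson r of 0.944 in log2 CPM. AARA004523 and AARA002019 followed, with an r of 0.919 and 0.915, and these values are a description over libraries that share groups and totals.

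The last of the 3, AARA009635, was higher in the populations by 1.09 on the log2 scale (SE 0.259, edgeR adjusted p 0.0024), and it is named because the count is small. Its groups overlapped, as CHW replicate 4 had 1408 CPM and SEK replicates 1 to 4 had 2146, 2193, 1583 and 1517. It fell under the 2-fold limit without CHW replicate 3 (0.97), without MOZ replicate 2 (0.96), without TOL replicate 1 (0.98) and with library totals of nuclear counts (0.98). Within the second run it was 1.15 (edgeR adjusted p 0.19), and with the run as a covariate 1.27 (edgeR adjusted p 0.138). With the run as a covariate edgeR called 0 members and 3.88% of genes, with 18 members at an unadjusted p under 0.05. Within the second run it called 0 members and 1.57% of genes, with 8 members at an unadjusted p under 0.05. For neither setting was the share of all genes at that unadjusted limit counted, so the 18 and 8 members have no background.

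The strains, which were all in the second run, differed from each other in 4 members, 2 higher and 2 lower in MOZ, against 12.7% of all genes tested (6.42% higher and 6.29% lower). All 4 MOZ libraries lay above all 4 SEK libraries for 30 members and below for 8, against 19.1% and 14.5% of the nuclear genes tested, or 33.6% either way. Without the fold requirement 28 members passed, 21 higher and 7 lower, against 41.5% of all genes tested. Counted either way, the members were thus near the background by overlap and below it by the adjusted p. By direction, those wholly higher in MOZ were above their background share and those wholly lower were below it.

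AARA016538 and AARA001672 were the lower ones. AARA016538 stood at 416, 236, 397 and 150 CPM in MOZ and at 4224, 6146, 2484 and 3859 in SEK, and the log2 fold change was -3.83 (SE 0.525, edgeR adjusted p 1.83e-05). AARA001672 stood at 1597, 677, 898 and 429 CPM in MOZ and at 4556, 7861, 3838 and 5349 in SEK, and the log2 fold change was -2.63 (SE 0.48, edgeR adjusted p 0.000282). Neither ID overlapped between the strains. By the mean of the 3 populations, which the comparison does not use, AARA001672 was at rank 89 and AARA016538 at rank 133. Among the 100 IDs chosen by the populations alone 3 were called between the strains, 2 higher and 1 lower.

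AARA016266 and AARA008715 were higher in MOZ. AARA016266 stood at 4030, 13511, 5080 and 5683 CPM in MOZ and at 2724, 2948, 1519 and 5216 in SEK, and MOZ replicate 2 was the only library of all 20 in which it was the first ID. Its log2 fold change was 1.16 (SE 0.4, edgeR adjusted p 0.0259). It was 0.69 without MOZ replicate 2 (edgeR adjusted p 0.154), 1.12 without SEK replicate 1 (0.0576) and 0.92 without SEK replicate 3 (0.0821). AARA008715 stood at 3741, 3920, 4636 and 2026 CPM in MOZ and at 1053, 1657, 2052 and 1787 in SEK, overlapping through MOZ replicate 4 and SEK replicate 3. Its log2 fold change was 1.13 (SE 0.221, edgeR adjusted p 0.000509), which fell under the 2-fold limit without MOZ replicate 3 (0.93) and without SEK replicate 1 (0.98).

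Among the populations ASN differed from CHW in 4 members, 1 higher and 3 lower in ASN, against 3.64% of all genes tested (2.82% higher and 0.817% lower). Between CHW and TOL 4 members were called, of which CHW had 2 higher and 2 lower, against 3.5% (0.781% higher and 2.72% lower). These comparisons share the CHW libraries and are given side by side. Between ASN and TOL 0 members were called, against 1.39% of all genes tested (1.04% higher and 0.345% lower). In edgeR 8 members had an unadjusted p under 0.05, and the share of all genes at that limit was not counted. DESeq2 called 1 member, AARA015772. Its log2 fold change of ASN over TOL was -1.57 (SE 0.511, edgeR adjusted p 0.0797), and the adjusted p was 0.0343 without CHW replicate 1. At an adjusted p under 0.05 and any fold 2 members passed, both lower in ASN, against 5.6% of all genes tested. These were AARA003651 at -0.91 (edgeR adjusted p 0.0192) and AARA002019 at -0.56 (edgeR adjusted p 0.0447).

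Members with no overlap between the libraries of the groups compared were counted too, whether called or not. ASN lay wholly above CHW for 1 member and below for 6, against 7.83% and 5.04% of the nuclear genes tested (12.9% either way). CHW lay wholly above TOL for 15 members and below for 6, against 7.69% and 6.66% (14.4% either way). ASN lay wholly above TOL for 3 members and below for 4, against 8.14% and 2.75% (10.9% either way). Without the fold requirement 8 members passed for ASN and CHW, against 13.3% of all genes tested, and 17 for CHW and TOL, against 13%. Of these 17 members 12 were higher in CHW, and the median log2 fold change over all members was 0.07, against 0.01 over all genes tested.

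AARA001672 and AARA016538 were high in CHW. AARA001672 stood at 5982, 5575, 3115 and 1167 CPM in CHW, at 1074, 941, 806 and 551 in ASN and at 836, 448, 879 and 381 in TOL. CHW lay above both other populations, with CHW replicate 4 just above ASN replicate 1. Its log2 fold change was -2.22 for ASN over CHW (SE 0.473, edgeR adjusted p 0.00387) and 2.58 for CHW over TOL (SE 0.479, edgeR adjusted p 0.00239). Within the first run, in which CHW has 2 libraries, the values were -2.75 (edgeR adjusted p 0.00165) and 3.13 (edgeR adjusted p 0.00136).

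AARA016538 stood at 4385, 4130, 2372 and 886 CPM in CHW, at 565, 377, 422 and 287 in ASN and at 1542, 555, 868 and 470 in TOL. CHW lay above ASN, and CHW replicate 4 lay below TOL replicate 1. The log2 fold change of ASN over CHW was -2.82 (SE 0.502, edgeR adjusted p 0.00102), and -3.34 (edgeR adjusted p 0.00149) within the first run. That of CHW over TOL was 1.71 (SE 0.482, edgeR adjusted p 0.0253), and 2.24 (edgeR adjusted p 0.0121) within the first run. The adjusted p of the latter rose to between 0.0568 and 0.0884 without CHW replicate 1 or 2 or TOL replicate 2, 3 or 4. Across all 20 libraries this ID and AARA001672 had a Pearson r of 0.907 in log2 CPM, and 0.938 in their deviations from the group means.

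AARA015772 and AARA002065 were lower in CHW than in TOL, with no overlap. By the mean of ASN, SEK and MOZ, which this comparison does not use, AARA002065 was at rank 18 and AARA001672 at rank 52. By that mean AARA015772 was at rank 200 and AARA016538 at rank 104. Without CHW and TOL these last IDs were thus outside the first 100, though AARA016538 was highest in SEK. Among the 100 IDs chosen by ASN, SEK and MOZ 2 were called between CHW and TOL. The log2 fold change of CHW over TOL was -3.18 for AARA015772 (SE 0.543, edgeR adjusted p 0.00147) and -1.41 for AARA002065 (SE 0.218, edgeR adjusted p 0.000821). Within the first run the values were -2.73 (edgeR adjusted p 0.0347) and -1.27 (edgeR adjusted p 0.0196). AARA015772 was also called higher in ASN than in CHW, at 1.62 (SE 0.512, edgeR adjusted p 0.0421), with overlapping libraries. It was 2.45 without CHW replicate 1, and 1.18 within the first run (edgeR adjusted p 0.28). The call was lost without any 1 of ASN replicates 2, 3 and 4, CHW replicates 2, 3 and 4 and TOL replicate 2, with values from 1.36 to 1.63. AARA008715 was lower in ASN, at 1019, 1163, 1407 and 1485 CPM, than in CHW, at 2830, 2258, 3265 and 2342, and the log2 fold change was -1.09 (SE 0.221, edgeR adjusted p 0.00266), which fell under the 2-fold limit without CHW replicate 3 (-0.95).

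**Figure D3:**
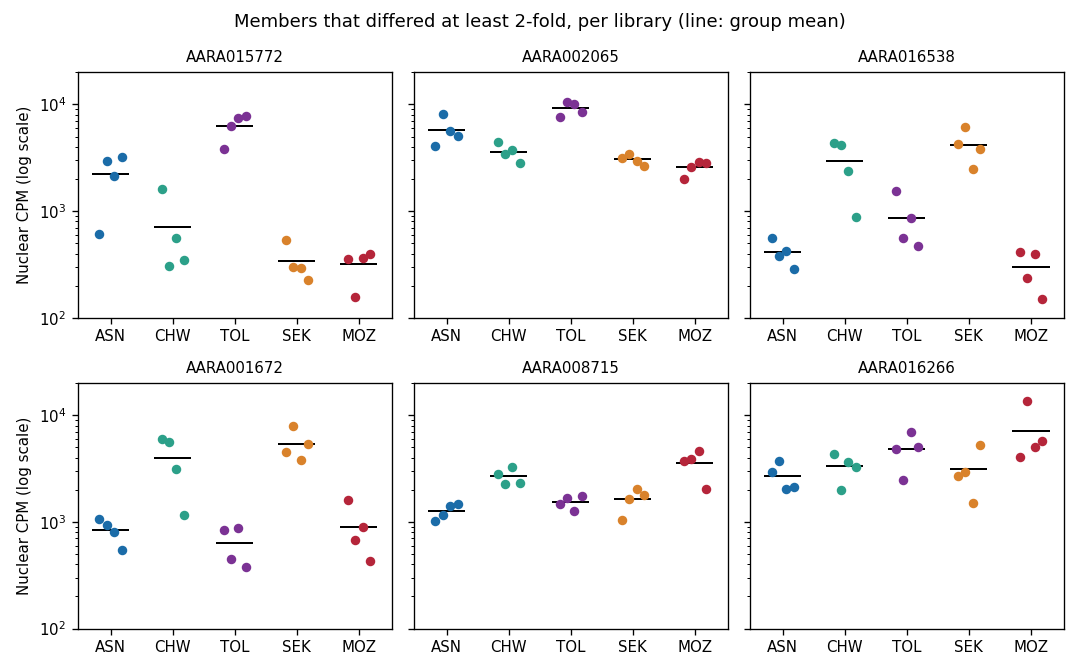
Nuclear CPM on a log scale in each library (points, replicates 1 to 4 from left to right) and group mean (line) of 6 of the 7 members called in a comparison of populations, of strains or of both. AARA015772 and AARA002065 are highest in TOL, AARA016538 and AARA001672 in SEK and CHW, and AARA008715 and AARA016266 in MOZ.

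The sequencing run was looked at within CHW, the only group in both runs. Between CHW replicates 3 and 4 and replicates 1 and 2 edgeR called 0 members and 0.0% of 11352 genes, with 7 members and 5.22% of genes at an unadjusted p under 0.05, and DESeq2 called 0 members and 1 gene. Of the members 3 were at least 2-fold apart. The median size of the members' log2 fold change was 0.09 and the largest 1.41. With 2 libraries on each side a difference near 2-fold may go uncalled.

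Spread between replicates was taken as the pooled within-group SD of log2(CPM + 1). Its median over the 100 members was 0.218, against 0.197 for the next 100 IDs by rank and 0.211 for the next 900. The first 10 had a median of 0.31. The share of IDs with an SD under 0.15 was 38.0% among the members, 36.0% among the next 100 and 22.4% among the next 900. The members' share was thus near that of the next 100 IDs and above that of the next 900. For 38 members the within-group SD was larger than the SD of the 5 group means, and for 62 it was smaller. By group the median SD over the members was 0.217 in CHW, 0.195 in ASN, 0.171 in TOL, 0.161 in MOZ and 0.139 in SEK. Over the next 900 IDs it was 0.203 in CHW, 0.18 in ASN, 0.174 in TOL, 0.202 in MOZ and 0.171 in SEK, so the members' median was the lower one in TOL, MOZ and SEK and the higher one in CHW and ASN.

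The members covered a wide range of spread. AARA006556 had the smallest SD, 0.0812, and lay between 1709 and 2339 CPM in all 20 libraries, with 2074, 2036, 2053 and 2074 CPM in MOZ. AARA009116 followed with 0.0822, and had 3967, 4264, 4063 and 4252 CPM in ASN and 4990, 5040, 4637 and 5174 in SEK. AARA006591 was tight within groups, at 4209, 4279, 4059 and 4245 CPM in MOZ, and lower in SEK, at 3136, 3081, 2948 and 3394. The difference of 0.41 between these strains on the log2 scale was past the adjusted p limit (SE 0.0983, edgeR adjusted p 0.0028) though far under 2-fold. AARA015772, AARA016538 and AARA001672 had the largest SDs, 0.808, 0.729 and 0.716, so the IDs that differed most between groups were also those that differed most between replicates.

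**Figure D4:**
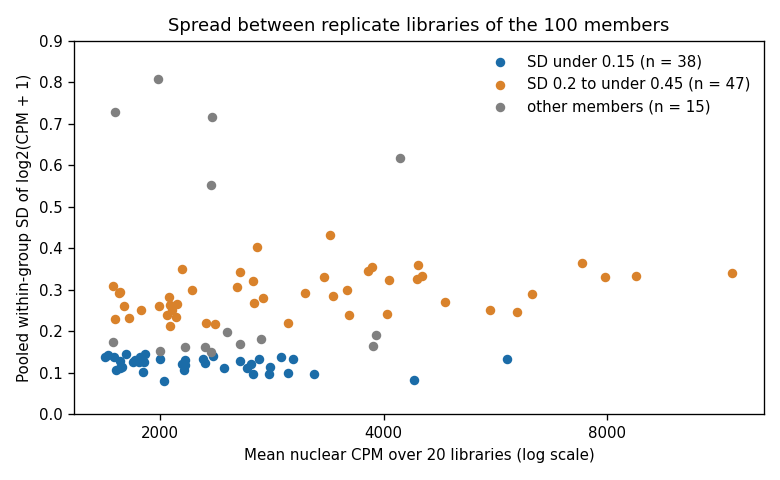
Pooled within-group SD of log2(CPM + 1) of each member against its mean nuclear CPM on a log scale. The 38 members with an SD under 0.15 include 1 of the 10 highest IDs, and the 47 members with an SD of 0.2 to under 0.45 include the other 9.

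Most members fell into a steady set of 38, with a within-group SD under 0.15, or a looser set of 47, with an SD from 0.2 to under 0.45. These limits were set after the values were seen, and no test was made of the sets themselves. Members of the steady set deviated together from their group means, with a median pairwise Pearson r of 0.703 across 20 libraries and 90.3% of 703 pairs positive. In the looser set the median was 0.391, with 63.7% of 1081 pairs positive. Between the sets the median was -0.438. All IDs of a library share 1 total, so a rise of one set lowers the CPM of the other. After TMM scaling (a trimmed mean of ratios between libraries) the medians were 0.65 and 0.582 within the sets and 0.0717 between them, with 94.7% and 75.7% of pairs positive within the sets and 61.1% between them. The opposition of the sets thus depended on the scaling, and the correlation within the looser set was higher after TMM scaling.

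The sets also differed in the groups where they were highest. In nuclear CPM 27 of the 38 steady members were highest in MOZ and 31 were lowest in TOL, and after TMM scaling 24 and 17. Of the 47 looser members 27 were highest in TOL and 23 lowest in MOZ, and after TMM scaling 33 and 27. The number of steady members lowest in TOL thus depended on the scaling. Nuclear IDs that are no members were not counted by highest and lowest group. These directions are therefore not shown to be particular to the sets. Summed, the steady set took 8.0% of nuclear counts in TOL and 10.4% in MOZ, and the looser set 18.2% in TOL and 15.4% in MOZ. None of the 38 steady members was called at 2-fold in any of the 5 contrasts between populations, strains or both. Of all genes tested, 1.39% (ASN against TOL) to 12.7% (MOZ against SEK) were called, so few calls would be due among 38 IDs in most contrasts. At any fold 14 of the 38 had an adjusted p under 0.05 for MOZ against SEK in edgeR's test and 12 for populations against strains. Of all genes tested 41.5% and 42.9% did. The set was chosen on its within-group SD, and spread within groups also enters the test. These counts and shares are therefore not compared like with like, and no conclusion is drawn from them.

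**Figure D5:**
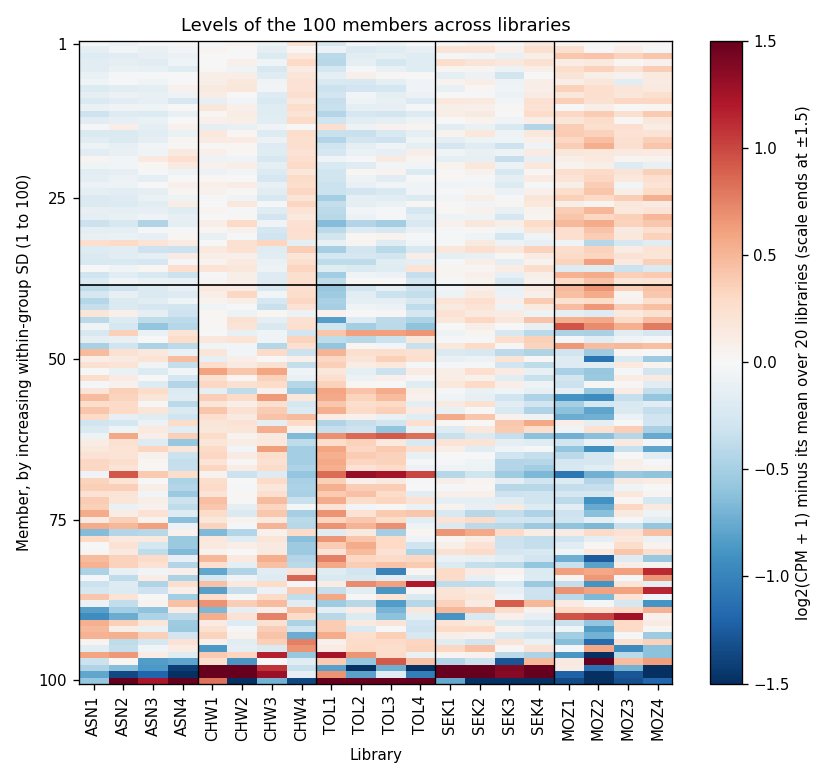
Deviation of log2(CPM + 1) from its mean over 20 libraries, with members ordered from the smallest to the largest within-group SD and a line below the 38 members with an SD under 0.15. The upper block is mostly above its mean in MOZ and below it in TOL, and the last rows hold the large changes of AARA015772, AARA016538 and AARA001672.

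In nuclear CPM single libraries showed the opposite movement of the sets. In CHW replicate 4, 35 of the 38 steady members were at their highest of the 4 CHW libraries and 35 of the 47 looser members at their lowest. In SEK replicate 4 the numbers were 28 and 36, in ASN replicate 4 they were 25 and 31 and in TOL replicate 4 they were 19 and 27. CHW replicate 3 had the reverse pattern, with 36 steady members at their lowest and 22 looser members at their highest, and MOZ replicate 3 had 25 and 33. SEK replicate 3 had 28 steady members at their lowest but only 7 looser members at their highest. Of the other nuclear IDs 41.9% were at their highest in CHW replicate 4 and 32.1% in SEK replicate 4. In ASN and TOL replicate 4 these shares were 58.7% and 45.8%, so much of the table was highest there too. In these libraries 15.1% to 19.9% of the other nuclear IDs were at their lowest. In CHW and MOZ replicate 3, 36.4% and 42.6% were at their lowest, and in SEK replicate 3, 13.5%. Several of these libraries thus also stood apart beyond the members. CHW replicate 4 was also the CHW library with the lowest AARA001672 and AARA016538. The mitochondrial share was 18.7% in CHW replicate 4 and 23.9% in CHW replicate 3, and 15.4% in SEK replicate 4 and 14.2% in MOZ replicate 3. It was 30.6% in ASN replicate 4, 25.9% in TOL replicate 4 and 12.1% in SEK replicate 3. Its part in these patterns was not tested.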

How the data were processed

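Gene counts of 20 polyA libraries, read as pairs of 125 bp, were used as deposited by the authors, as whole-number counts without normalization, judged from the values. Per the labels' protocols, the sequencing core trimmed the reads. The submitters' processing notes name FastQC 0.11.4, HISAT2, Cufflinks, SAMtools 1.5 and HTSeq 0.9.0 with no roles. For build and annotation, the sources used here give no name. All 20 columns were matched to samples by title.

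Nuclear CPM was the count divided by the sum of AARA counts, with a pseudocount of 1 before log2. The 100 members, the gene sets and the tests were chosen with earlier results of these data known. Tests were run with edgeR 4.0.16 in R 4.3.3 (filterByExpr, TMM scaling, 5 groups in 1 quasi-likelihood fit, no covariates, Benjamini-Hochberg adjustment over all genes tested). The test was checked on simulated data. DESeq2 1.42.0, other scalings, no filter, the run, a replicate block and leaving out libraries were alternatives. Standard errors are the log2 fold change divided by the square root of F. Replicates are labelled as biological.

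Named IDs follow a rule: the 10 highest, those next to the limit, the 4 with the largest rank changes, the 3 steadiest and 3 most variable, the 2 largest calls each way per comparison, and the closest patterns. Some others are named where a count was 5 or fewer.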

Additional observations from a re-analysis of the deposited data

Results flagged for a closer look

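Within groups of 4 libraries, 1 library stood far from the others in 5 of 100 groups of values examined (its gap to the nearest library, over the range of the group, was above Dixon's 95% critical value), where chance gives about 1 in 20. AARA016439 had 18155 CPM in MOZ replicate 4, against 12480 to 13168 in the other MOZ libraries. AARA001634 had 16218 CPM in the same library, against 11175 to 11502, and these IDs vary together. AARA015772 had 158 CPM in MOZ replicate 2, against 358 to 398. AARA009116, among the steadiest members, had 3959 CPM in CHW replicate 3, against 4412 to 4499. AARA006591 had 2408 CPM in TOL replicate 1, against 2805 to 2879. CHW replicate 3 and TOL replicate 1 were the libraries of their groups in which most of the 38 steady members were lowest, 36 and 31. Of the other nuclear IDs 36.4% and 39.6% were lowest there.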

How the results depend on the processing

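Without the fold requirement the members called rose to 55 between any groups, 48 between populations and strains, 28 between the strains, 8 between ASN and CHW, 17 between CHW and TOL and 2 between ASN and TOL. With the run as a covariate, and within the second run, 0 were called between populations and strains. With members chosen by the median CPM the counts were 2 between the strains, 1 between ASN and CHW and 1 between CHW and TOL. The shares of all genes tested in these comparisons were 12.7%, 3.64% and 3.5%. With members chosen by the groups not compared 2 were called between CHW and TOL. DESeq2 called 1 member between ASN and TOL. Leaving out 1 library gave 13 to 20 members between any groups, 2 to 4 between populations and strains, 2 (without SEK replicate 1) to 4 between the strains, 2 (without CHW replicate 3) to 4 between ASN and CHW, 3 to 5 between CHW and TOL and 0 to 1 (without CHW replicate 1 or TOL replicate 1) between ASN and TOL. With all counts as the total the share of the members was 25.1% in MOZ, 23.8% in both SEK and CHW, 20.2% in TOL and 19.7% in ASN, and without the 3 highest members 27.2% in MOZ, 27.0% in SEK, 28.3% in both CHW and TOL and 26.0% in ASN. The other 253 values for counts, shares and spread stayed within 1.5 times, or within 1 SD for shares. None of the 16 log2 fold changes followed ID by ID, those of 7 called IDs, changed sign. Over all members some signs did change. With library totals of nuclear counts, 10 members changed sign for populations over strains and 11 for ASN over TOL. With upper-quartile scaling 7 and 13 did, and with the run as a covariate 12 and 0. Without the filter on low counts the numbers were 0 and 1. The cause of these changes was not tested.

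The replicate numbers were not taken to pair the libraries, since only 11 of 40 same-numbered pairs of libraries had correlated deviations over 0.1 and 7 of 20 libraries correlated best with their own number. Replicate 4 was nonetheless the library of ASN, CHW, TOL and SEK in which most looser members were lowest. With the replicate number as a block 14 members were called between any groups, 3 between populations and strains, 4 each between the strains, ASN and CHW, and CHW and TOL, and 0 between ASN and TOL.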

Other observations

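Of the IDs that are no members but among the 100 highest of a group, AARA001671 had the lowest overall rank, 257. It was singled out after its values were seen. It stood at 1957, 2780, 1265 and 1771 CPM in SEK, at 1371, 1643, 686 and 264 in CHW, at 227, 162, 173 and 198 in ASN, at 276, 210, 324 and 133 in TOL and at 109, 51, 107 and 80 in MOZ. SEK and CHW were high and CHW replicate 4 was the lowest of CHW, as for AARA001672, with which it had a Pearson r of 0.902 in log2 CPM over the 20 libraries. The ratio of AARA001672 to AARA016538 in nuclear CPM was 1.31 to 1.36 in the 4 CHW libraries, though each ID alone varied several fold there. It was 1.08 to 1.55 in SEK, 1.9 to 2.49 in ASN, 0.542 to 1.01 in TOL and 2.26 to 3.84 in MOZ.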
